A study of Mus musculus with 6 samples.

Results

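The 8 genes described here encode the enzymes that make catecholamines (Th, Ddc, Dbh and Pnmt), the enzymes that oxidise them (Maoa and Maob) and a pair of the receptors that sense them (Adra1a and Adrb1). They were taken by gene symbol from the 57127 genes of the deposited count table, and all 8 had a row there. RNA was sequenced from the whole epididymis, the duct in which sperm mature, of adult C57BL/6 mice. There were 3 wild-type (WT) libraries and 3 libraries from mice lacking occludin (Ocln-/-, here Ocln-KO), a transmembrane protein of tight junctions. The deletion was carried in the germline and the Ocln-KO animals were bred from heterozygous parents, so no tissue of these animals was spared the deletion. The RNA came from pairs of WT and Ocln-KO animals, but the methods also speak of pooled RNA, so n counts libraries and a p-value measures the spread between libraries. The comparison asks which genes differ between the epididymis of WT and of Ocln-KO mice.

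Th, the enzyme of the first step of catecholamine synthesis, was almost undetected in Ocln-KO libraries, with 77 reads over the 3 WT libraries and 4 over the 3 Ocln-KO libraries. Adra1a, an adrenergic receptor, was lower in Ocln-KO at 0.662 of its WT level. Pnmt, the enzyme that makes adrenaline, was lower in every Ocln-KO library than in any WT library, but its difference did not pass the test. The other 5 genes overlapped between the groups, and Maoa and Maob were at nearly the same mean level in both.

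Catecholamines are made from tyrosine in a chain of reactions. Tyrosine hydroxylase (Th) makes L-DOPA and sets the pace of the chain, aromatic L-amino acid decarboxylase (Ddc) makes dopamine, dopamine beta-hydroxylase (Dbh) makes noradrenaline inside vesicles, and phenylethanolamine N-methyltransferase (Pnmt) adds a methyl group to give adrenaline. Monoamine oxidases A and B (Maoa, Maob), on the outer membrane of mitochondria, begin their breakdown. In the epididymis, noradrenaline is released by sympathetic nerves that supply the muscle coat of the duct and its blood vessels. The cell bodies of those nerves, where most of their mRNA is found, lie in ganglia outside the organ.

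Th and Dbh are usually expressed together in noradrenergic neurons, so the 100 bases before their starts are shown side by side (RefSeq, GRCm38.p6, each 5′ to 3′ on the strand of its gene). Capitals mark a cAMP response element, TGACGTCA, whose letters read the same on both strands. The Th window is chr7:142899996-142900095 on the minus strand and the Dbh window is chr2:27165407-27165506 on the plus strand.
Th: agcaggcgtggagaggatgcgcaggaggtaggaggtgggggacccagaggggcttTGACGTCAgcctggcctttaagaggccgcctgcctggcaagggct
Dbh: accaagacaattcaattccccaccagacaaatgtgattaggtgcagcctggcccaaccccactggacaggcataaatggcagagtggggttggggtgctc
The element starts 45 bases before the Th start, and these letters are not in the Dbh window. They stand in 379 of 32851 windows of this length in the same table (1.15%). A GC box, GGGCGG on either strand, stands in 24.7% of the windows and in neither of those shown. Of the 8 genes, 5 had an entry in the table, and Pnmt, Maob and Adra1a had none.

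Levels are given as CPM, the usual library-scaled count of a gene, here with library sizes corrected for composition (TMM), and differences as log2 of Ocln-KO over WT. A gene was called where edgeR's quasi-likelihood test gave an adjusted p under 0.05 (Benjamini-Hochberg over all 19691 genes tested). The libraries held 30646424 to 38870780 counts, and 3 counts in 1 library were worth 0.0802 to 0.0942 CPM. Ocln itself (chr13:100496504-100552718) was at 85.5 ± 6.51 CPM in WT and 15.1 ± 0.231 in Ocln-KO (SD, n = 3 each; log2 -2.50, adjusted p = 0.000108), so 486 to 503 reads a library were still counted at the gene in Ocln-KO. On the first principal component (47.2% of the variance) Ocln-KO replicate 3 stood apart at 86.3, against 17.7 and 29.1 for the other two Ocln-KO libraries and -52.8 to -37.0 for WT. The epididymal genes Crisp1, Lcn5 and Spink8 were abundant in all libraries. Of the genes listed for the head and for the distal organ, 4 of 10 and 3 of 8 had a mean under 1 CPM. Of these, Cst12 and Svs2 had no count, and the region of each listed gene was not tested. The labels' extraction text names prefrontal cortex, but 7 markers of cortical neurons and glia summed to at most 3.02 CPM in any library.

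Of the 8 genes, 2 were called, both lower in Ocln-KO (Th and Adra1a). Of all genes tested 8.95% were called, 5.04% as lower and 3.91% as higher. With scaling by total counts alone the balance over all genes changed, from 56.3% of calls being lower to 36.5%, and the median difference of all genes moved from 0.01 to 0.09. Under that scaling Adra1a was no longer called. With the added condition of a fold below 0.5, Th was left as 1 gene of the 8, against 1.7% of all genes tested. The groups did not overlap for 3 genes (Th, Pnmt and Adra1a), lower in Ocln-KO each time. Of all genes tested 36.3% did not overlap, 19.4% with Ocln-KO lower. The median difference of the 8 genes was -0.36, beside 0.01 for all genes tested, and 3 genes had an unadjusted p under 0.05. The 8 genes were chosen with earlier results of these data known, so these shares are no independent evidence.

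**Figure D1:**
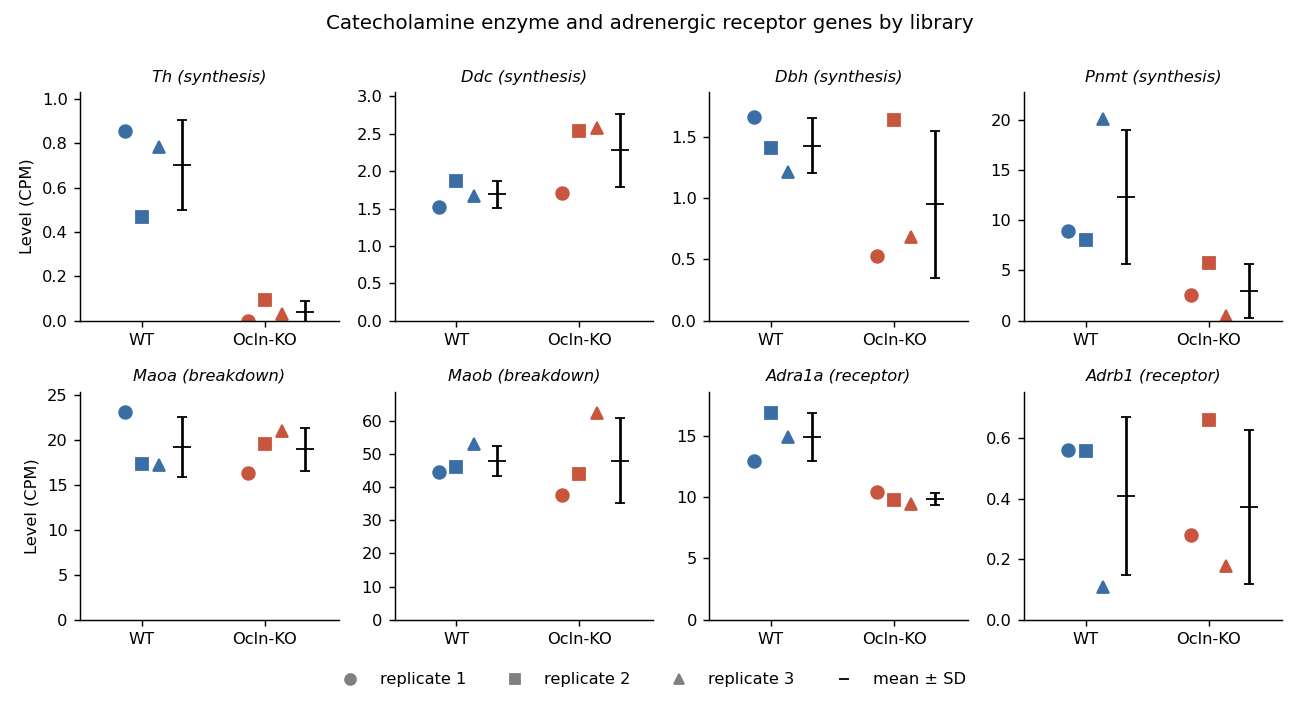
Level of each of the 8 genes in CPM (y axis, from 0) in the 3 WT and the 3 Ocln-KO libraries, 1 panel per gene, with points for libraries and lines for the mean ± SD. Th, Pnmt and Adra1a have no overlap between the groups, and in the Pnmt panel the libraries of each group spread widely (8.06 to 20.03 CPM in WT and 0.444 to 5.74 CPM in Ocln-KO).

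Th (chr7:142892779-142899995, minus strand) had 32, 16 and 29 counts in WT replicates 1 to 3, and 0, 3 and 1 in Ocln-KO replicates 1 to 3. The WT levels were 0.855, 0.469 and 0.781 CPM, against 0, 0.0942 and 0.0296 CPM without occludin. Every WT library was above every Ocln-KO library, and no Ocln-KO library had more than 3 counts. The means were 0.702 ± 0.205 and 0.0413 ± 0.0482 CPM (SD, n = 3 each), and the fitted difference was -3.98 (SE 0.81, edgeR adjusted p = 0.0307). At so few counts the fitted size depends on the small prior added to the counts. The ratio of the summed reads, scaled for library size, was 17.3-fold in favour of WT, with a 95% exact interval from 6.49 to 65.2 that covers counting error only. Th entered the test through its WT libraries alone. Its call was lost without WT replicate 1 (adjusted p = 0.122), WT replicate 2 (0.0715), WT replicate 3 (0.112) or Ocln-KO replicate 2 (0.0504). In whole tissue, fewer cells of a type and less RNA per cell cannot be told apart, here or for the genes that follow.

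Ddc (chr11:11814101-11898144, minus strand), which follows Th in the chain and also makes serotonin, was at 1.52, 1.88 and 1.67 CPM in WT replicates 1 to 3. In Ocln-KO replicates 1 to 3 it was at 1.71, 2.54 and 2.57 CPM. Ocln-KO replicate 1 lay inside the WT range and the other two Ocln-KO libraries lay above it. The difference was 0.43 (SE 0.29, 95% interval -0.25 to 1.11, edgeR adjusted p = 0.373).

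Dbh (chr2:27165507-27183204, plus strand) was at 1.66, 1.41 and 1.21 CPM in WT replicates 1 to 3. In Ocln-KO replicates 1 to 3 it was at 0.530, 1.63 and 0.681 CPM. Ocln-KO replicate 2 was as high as the WT libraries, and the other two were below them all. The 155 WT and 92 Ocln-KO counts gave a difference of -0.59 (SE 0.48, 95% interval -1.69 to 0.51, edgeR adjusted p = 0.457). Without Ocln-KO replicate 2 the difference was -1.23 (adjusted p = 0.1405). The depth behind Dbh in Ocln-KO, 17 to 52 counts a library, was well above the 0 to 3 counts of Th in the same libraries.

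Pnmt (chr11:98386623-98388180, plus strand) was at 8.90, 8.06 and 20.03 CPM in WT replicates 1 to 3. In Ocln-KO replicates 1 to 3 it was at 2.59, 5.74 and 0.444 CPM. The groups did not overlap, but WT replicate 3 stood over the other two WT libraries and Ocln-KO replicate 3 far under the other two Ocln-KO libraries. The means were 12.3 ± 6.68 and 2.92 ± 2.67 CPM, and the difference was -2.08 (SE 0.74, 95% interval -3.79 to -0.36). The unadjusted p was 0.0235 and the edgeR adjusted p was 0.114, so Pnmt was not called. Over 14 alternative settings the difference stayed between -3.03 and -1.53 and the adjusted p between 0.0509 and 0.331. Without Ocln-KO replicate 3 it was -1.57 (adjusted p = 0.0769), and without WT replicate 3 it was -1.53 (0.331). Pnmt is among the genes the study itself drew out of its comparison of these genotypes, so its direction here is not independent evidence.

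The Pnmt reads outnumbered those of Dbh, the enzyme just before it in the chain, in 5 of the 6 libraries. The ratio of Pnmt to Dbh counts was 5.37, 5.73 and 16.5 in WT replicates 1 to 3. In Ocln-KO replicates 1 to 3 it was 4.88, 3.52 and 0.652. The 2 extreme ratios belonged to replicate 3 of each group, while Ocln-KO replicates 1 and 2 were near WT replicates 1 and 2. The 5 transcription factors listed as known to act on Pnmt were all tested and none was called. Among them Egr1, an immediate early factor, was at 10.3 ± 2.96 CPM in WT and 15.4 ± 2.61 in Ocln-KO (0.58, adjusted p = 0.144). Nr3c1, the glucocorticoid receptor, was at 70.5 CPM in WT and 85.2 in Ocln-KO (0.27, adjusted p = 0.0734).

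Maoa (chrX:16619698-16687812, plus strand), which prefers serotonin and noradrenaline, was at 23.1, 17.3 and 17.2 CPM in WT replicates 1 to 3. In Ocln-KO replicates 1 to 3 it was at 16.3, 19.6 and 20.98 CPM, within or just under the WT range. The difference was -0.02 (SE 0.16), with a 95% interval from -0.39 to 0.35. Maob (chrX:16709281-16817366, minus strand), which prefers phenylethylamine, was at 44.4, 46.2 and 52.9 CPM in WT. In Ocln-KO it was at 37.7, 43.8 and 62.3 CPM, and the Ocln-KO libraries spanned the whole WT range. Its difference was 0.00 (SE 0.18, 95% interval -0.42 to 0.42). Both intervals include 0 and modest changes in either direction. The edgeR adjusted p was 0.951 for Maoa and 0.994 for Maob.

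Maoa and Maob lie next to each other on the X chromosome and arose from a common ancestor, so reads shared between them could blur their counts. The longest run of bases common to their reference transcripts (GENCODE M21) is printed to show how short it is, with all of it in capitals, and it lies in the coding sequence of both.
Shared run: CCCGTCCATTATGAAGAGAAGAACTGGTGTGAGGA
This run has 35 bases, against transcripts of 4167 bases for Maoa and 2411 bases for Maob. Neither gene shares exon bases with another gene in that annotation. Maob counts exceeded Maoa counts in every library, by 1.92, 2.66 and 3.07 times in WT and by 2.31, 2.23 and 2.97 times in Ocln-KO, and these ranges overlap.

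Adra1a (chr14:66635251-66771240, plus strand), the alpha-1A receptor, couples to Gq and contracts smooth muscle. It was at 13.0, 16.9 and 14.9 CPM in WT replicates 1 to 3. In Ocln-KO replicates 1 to 3 it was at 10.4, 9.73 and 9.44 CPM. All Ocln-KO libraries lay under all WT libraries, and they were closer to each other than the WT libraries were. The means were 14.9 ± 1.94 and 9.86 ± 0.498 CPM (SD, n = 3 each). Adra1a fell by 0.60 on the log2 scale (SE 0.15, 95% interval -0.93 to -0.26, edgeR adjusted p = 0.0456). The call sat close to the threshold and was lost whichever 1 library was left out, with an adjusted p from 0.0610 to 0.132, while the difference stayed between -0.69 and -0.50.

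Adrb1 (chr19:56722117-56725150, plus strand), the beta-1 receptor, couples to Gs and raises cAMP. It had 21, 19 and 4 counts in WT replicates 1 to 3 and 9, 21 and 6 in Ocln-KO replicates 1 to 3, or 0.108 to 0.561 CPM in WT and 0.178 to 0.659 CPM in Ocln-KO. The groups overlapped fully, with the lowest library in WT and the highest in Ocln-KO. The difference was -0.13 (SE 0.75, edgeR adjusted p = 0.928). Its 95% interval, from -1.87 to 1.60, is wide enough that a change of the size seen for Adra1a was not detectable at this depth.

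**Figure D2:**
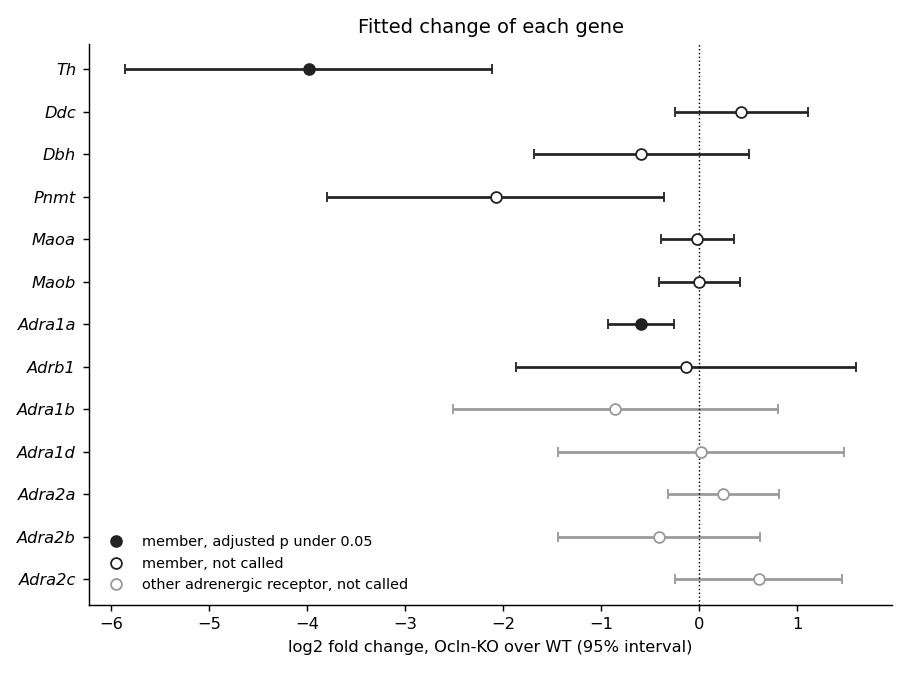
Difference between Ocln-KO and WT (log2, x axis) of the 8 genes and of the other listed adrenergic receptor genes that were tested, with points for the fitted value and bars for the 95% interval. The intervals of Th, Pnmt and Adra1a lie below 0, of which Th and Adra1a passed the adjusted test, and the other intervals include 0.

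A list of 6 other adrenergic receptor genes was read beside Adra1a and Adrb1. Of these, 5 were tested and none was called, with 3 differences above 0 and 2 below 0 and a median of 0.02. Adra2a, which holds back noradrenaline release from nerve endings, was at 6.25 ± 1.43 and 7.41 ± 1.65 CPM in WT and Ocln-KO (0.24, edgeR adjusted p = 0.554). Adra1b, the receptor gene nearest in type to Adra1a with Adra1d, was at 0.429 ± 0.333 and 0.236 ± 0.120 CPM (-0.85, adjusted p = 0.473). Adra1d was at 0.713 ± 0.149 and 0.722 ± 0.644 CPM (0.02, adjusted p = 0.989). Adra2b was at 0.852 ± 0.309 and 0.641 ± 0.191 CPM (-0.41, adjusted p = 0.591), and Adra2c at 1.86 ± 0.677 and 2.84 ± 0.886 CPM (0.61, adjusted p = 0.315). Adrb3 was at 0.288 ± 0.135 and 0.146 ± 0.141 CPM and was not tested.

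Levels were also compared between genes after division by exon length (CPM per kilobase of merged exons). On this scale Adra1a stood highest of these 8 receptor genes in WT by the group mean, at 1.71 ± 0.223, followed by Adra2a at 1.29 ± 0.296, and their libraries overlapped. In Ocln-KO the per-kilobase levels were 1.13 ± 0.0571 for Adra1a and 1.53 ± 0.341 for Adra2a. By the group means Adra1a stood above Adra2a in WT and below it in Ocln-KO on this scale, whereas with the length of the longest transcript it stood above Adra2a in Ocln-KO as well (2.30 against 1.53). Its share of the summed per-kilobase level of the 8 receptor genes was 37.2%, 41.3% and 36.2% in WT replicates 1 to 3. In Ocln-KO the shares were 24.9%, 25.4% and 30.4%, all below WT. With longest-transcript lengths the shares were higher, 53.4% to 58.5% in WT and 40.1% to 47.0% in Ocln-KO, with the same separation. These shares rest on the Adra1a values already given and are no separate test.

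**Figure D3:**
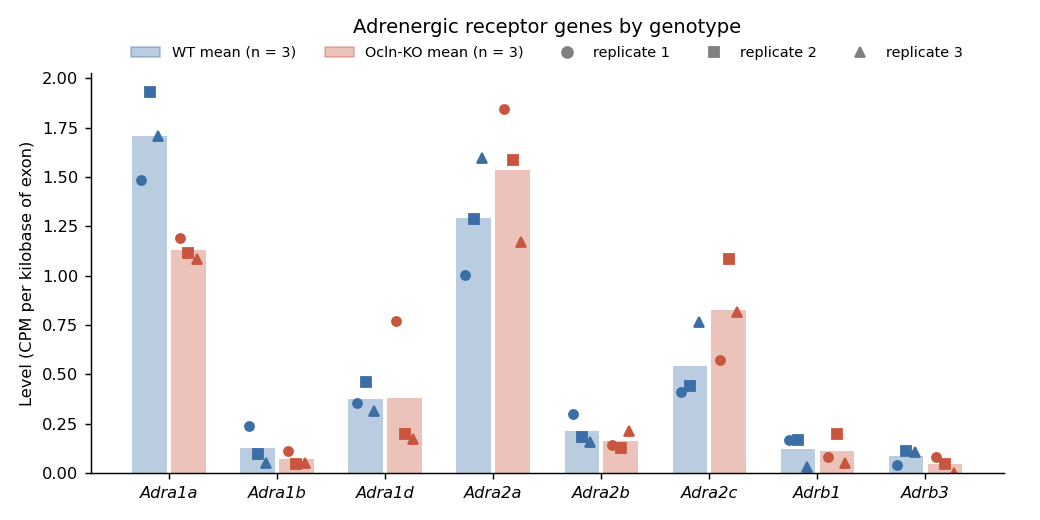
Level of 8 adrenergic receptor genes in CPM per kilobase of merged exons (y axis), with bars for the group mean from 0 and points for the 3 libraries of each group. Adra1a is the highest in WT (1.71) and is lower in Ocln-KO (1.13), whereas the Adra2a bar is higher in Ocln-KO without passing the test.

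Among the 8 genes the per-kilobase order in WT was Maob (17.2 ± 1.61), Pnmt (10.7 ± 5.79), Maoa (4.62 ± 0.814), Adra1a (1.71 ± 0.223), Dbh (0.529 ± 0.0830), Ddc (0.379 ± 0.0396), Th (0.297 ± 0.0867) and Adrb1 (0.121 ± 0.0771). Neighbours in that order overlapped in their libraries for Maob and Pnmt and for Ddc and Th, and the other neighbours did not. With longest-transcript lengths Dbh and Ddc changed places. In Ocln-KO the order was Maob (17.2 ± 4.58), Maoa (4.55 ± 0.573), Pnmt (2.53 ± 2.31), Adra1a (1.13 ± 0.0571), Ddc (0.510 ± 0.109), Dbh (0.352 ± 0.222), Adrb1 (0.110 ± 0.0750) and Th (0.0174 ± 0.0204). The degrading enzymes therefore had far more reads per kilobase than Th, Ddc and Dbh in both groups, and Th had the lowest level in Ocln-KO.

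A wider list of 77 genes around this pathway was read beside the 8, and 75 of them had a row in the table. Of the 61 that were tested, 9 were called lower and 1 was called higher in Ocln-KO. That is 16.4% called and 14.8% called lower, beside 8.95% and 5.04% of all genes tested. With total counts only 8 were called lower and 4 higher, and with DESeq2 12 were called lower and 4 higher. Their median difference was -0.02, against 0.01 over all genes. The list was chosen with earlier results of these data known, so its shares are no independent evidence. Of these pathway genes none was called without WT replicate 1 or without WT replicate 3, 1 (Gnai1) without WT replicate 2, and 5 without Ocln-KO replicate 2. The calls over all genes dropped in the same fits, from 992 lower and 770 higher to 19 and 4 without WT replicate 1, 40 and 16 without WT replicate 3, 145 and 85 without WT replicate 2, and 342 and 220 without Ocln-KO replicate 2. The Gnai1 difference moved little, to -0.83 without WT replicate 1, -0.94 without WT replicate 2 and -0.91 without WT replicate 3.

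Among genes of cofactor supply 1 of 8 tested was called, as lower, with 7 differences below 0 and 1 above 0. Qdpr, which recycles the tetrahydrobiopterin that Th uses, fell from 69.9 ± 7.68 to 48.9 ± 3.67 CPM (-0.51, edgeR adjusted p = 0.0335). The vesicle list had 1 tested gene of 5. This was Cyb561, a membrane cytochrome that keeps vesicular ascorbate reduced for Dbh, which fell from 2090 ± 162 to 1256 ± 178 CPM (-0.73, adjusted p = 0.0240). Of the vesicle and transport genes, Slc18a1, a vesicular monoamine transporter, was at 26.4 ± 4.88 and 24.2 ± 2.48 CPM (-0.13, adjusted p = 0.627). Slc6a2, the noradrenaline transporter of sympathetic nerves, was at 0.209 ± 0.105 and 0.648 ± 0.429 CPM (1.61, adjusted p = 0.182).

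In the breakdown list, 3 of 9 genes were called lower and none was called higher. Of the 9 differences, 7 were below 0 and 2 above 0, with a median of -0.24. Aldh2, the mitochondrial aldehyde dehydrogenase that acts after the monoamine oxidases, fell from 336.7 ± 25.6 to 189.6 ± 37.7 CPM (-0.83, edgeR adjusted p = 0.0233). Sult1a1, a phenol sulfotransferase, fell from 39.6 ± 2.80 to 25.5 ± 5.37 CPM (-0.64, adjusted p = 0.0468). Comtd1, named as a methyltransferase domain protein, fell from 10.7 ± 2.24 to 5.62 ± 1.05 CPM (-0.92, adjusted p = 0.0416). Aldh2 and Sult1a1 act on many substrates besides catecholamine products.

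Downstream of the receptors, 4 of 21 signalling genes were called lower and none was called higher. Of the 21 differences, 12 were below 0 and 9 above 0, with a median of -0.05. Gnai1, an inhibitory G protein subunit used by alpha-2 receptors, fell from 185 ± 14.3 to 99.8 ± 8.14 CPM (-0.89, edgeR adjusted p = 0.00863). The adenylyl cyclases Adcy2 (-1.25, adjusted p = 0.0255), Adcy5 (-0.50, 0.0241) and Adcy7 (-0.95, 0.0228), which make cAMP, were the other 3. Of 7 tested desensitisation genes, 1 was called. Adrbk2, a kinase that phosphorylates activated receptors, rose from 13.8 ± 1.12 to 24.6 ± 4.85 CPM (0.83, adjusted p = 0.0281). Of the 5 dopamine receptor genes, Drd4 alone was tested, at 3.21 ± 1.04 and 1.17 ± 0.745 CPM, with no overlap between the groups (-1.45, adjusted p = 0.137).

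**Figure D4:**
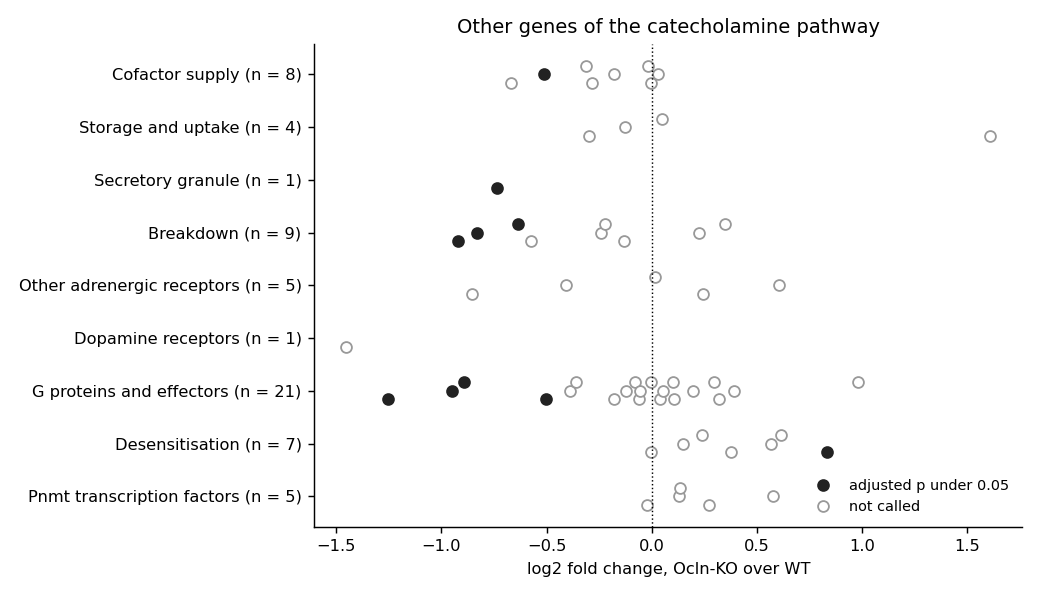
Difference between Ocln-KO and WT (log2, x axis) of each tested gene of the 9 pathway lists (rows), with filled points for genes called by edgeR's test. Called genes lie left of 0 in the cofactor, vesicle, breakdown and signalling lists (9 genes), and 1 called gene, Adrbk2, lies right of 0.

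Among genes with a mean of at least 1 CPM, those whose log2 CPM followed Th most closely over the 6 libraries were Ndufb5, a subunit of respiratory complex I, Cyb561 and Lamp1, a lysosomal membrane protein, with Pearson's r of 0.998, 0.997 and 0.997. All 3 were called lower, by 0.61, 0.73 and 0.57 on the log2 scale. For Adra1a they were Ap4s1, Mrps17 and Wash1 (0.992, 0.990 and 0.987), with differences of -0.21, -0.33 and -0.20 and none called. These values describe 6 libraries in 2 groups, with the group difference and the depth of each library in common, and they say nothing of shared control.

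Markers of other cells were read beside these results. Of 13 markers of sympathetic neurons, 4 were tested, none was called, 11 had a mean under 1 CPM over the 6 libraries and none was at 0 in all libraries. Their sum, 179 to 260 CPM in WT and 26.8 to 126 in Ocln-KO, was mostly Npy, a peptide released together with noradrenaline. Npy was at 167, 177 and 249 CPM in WT and at 97.9, 113 and 14.0 in Ocln-KO, in the same order as Pnmt in the Ocln-KO libraries and highest, like Pnmt, in WT replicate 3 (-1.40, edgeR adjusted p = 0.178). Without Npy and Syt1 the other 11 summed to 1.497 to 2.34 CPM in WT and 1.87 to 3.40 in Ocln-KO. Of this remainder Stmn2 alone gave up to 2.28 CPM in a library (77 counts in Ocln-KO replicate 3).

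The 7 smooth muscle markers summed to 1212 to 1465 CPM in WT and 1649 to 2225 in Ocln-KO, all 7 differences were above 0, and 2 were called higher. Of these Myh11, the smooth muscle myosin heavy chain, rose from 494 ± 82.1 to 839.8 ± 121 CPM (0.77, edgeR adjusted p = 0.0296), and the other was Actg2 (1.09, 0.0489). Clear cell markers of the epithelium moved the same way as Pnmt and Adra1a. Their sum was 272, 243 and 342 CPM in WT and 141, 145 and 73.6 in Ocln-KO. All 7 tested had a difference below 0 and no overlap between the groups, and 4 were called lower. The 7 adipocyte markers summed to 24.5, 27.8 and 22.8 CPM in WT and 19.98, 23.2 and 11.8 in Ocln-KO, with none called. These sums overlapped between the groups. Lipe, at 14.7 CPM in WT and 15.4 in Ocln-KO, was the 1 adipocyte marker with a difference above 0 (0.06). Without Lipe the other 6 summed to 7.83, 14.2 and 8.81 CPM in WT, above the 5.21, 2.92 and 0.592 CPM in Ocln-KO. That separation therefore depends on leaving out the marker that went the other way. Like Pnmt, the clear cell sum was highest in WT replicate 3, and both the clear cell and the adipocyte sum were lowest in Ocln-KO replicate 3. The pattern was not particular to these lists. The general epithelial and Schwann cell sums were likewise highest in WT replicate 3 (2156 and 288 CPM). Both were lowest in Ocln-KO replicate 3 (1668 and 203 CPM), as was the sum of the genes listed as distal (8545 CPM).

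Of the remaining lists, the 7 macrophage markers summed to 187 to 223 CPM in WT and 235 to 409 in Ocln-KO, with none called. Lymphocyte markers summed to 2.35 to 2.72 and 4.36 to 8.58 CPM, endothelial markers to 109 to 123 and 109 to 142, and Schwann cell markers, mostly Erbb3, to 229 to 288 and 203 to 267. The Schwann cell marker Mbp, a myelin protein, was called higher (0.62, edgeR adjusted p = 0.0315), while the 5 tested markers of that list had 3 differences above 0 and 2 below 0. Of 10 epithelial markers only Krt19 was called, as higher, whereas 7 differences were below 0 and 3 above 0 (median -0.09). Of 5 basal cell markers only Krt14 was called, as higher, with 4 differences above 0 and 1 below 0. Of 6 tested markers of the head of the organ only Gpx5 was called, as higher, at 54.5, 172 and 26.3 CPM in WT and at 256, 7264 and 10039 in Ocln-KO. The 6 had a median difference of 0.08, with 5 above 0 and 1 below 0. Among them Lcn5 was at 4928 and 5058 CPM (0.04) and Defb21 at 347 and 283 CPM (-0.30) in WT and Ocln-KO. The genes listed as distal, mostly Crisp1 and Spink8 by level, summed to 17695 to 22201 CPM in WT and 8545 to 15465 in Ocln-KO, with none called. The part of these cell type and region markers in the values of Th, Pnmt and Adra1a was not tested.

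**Figure D5:**
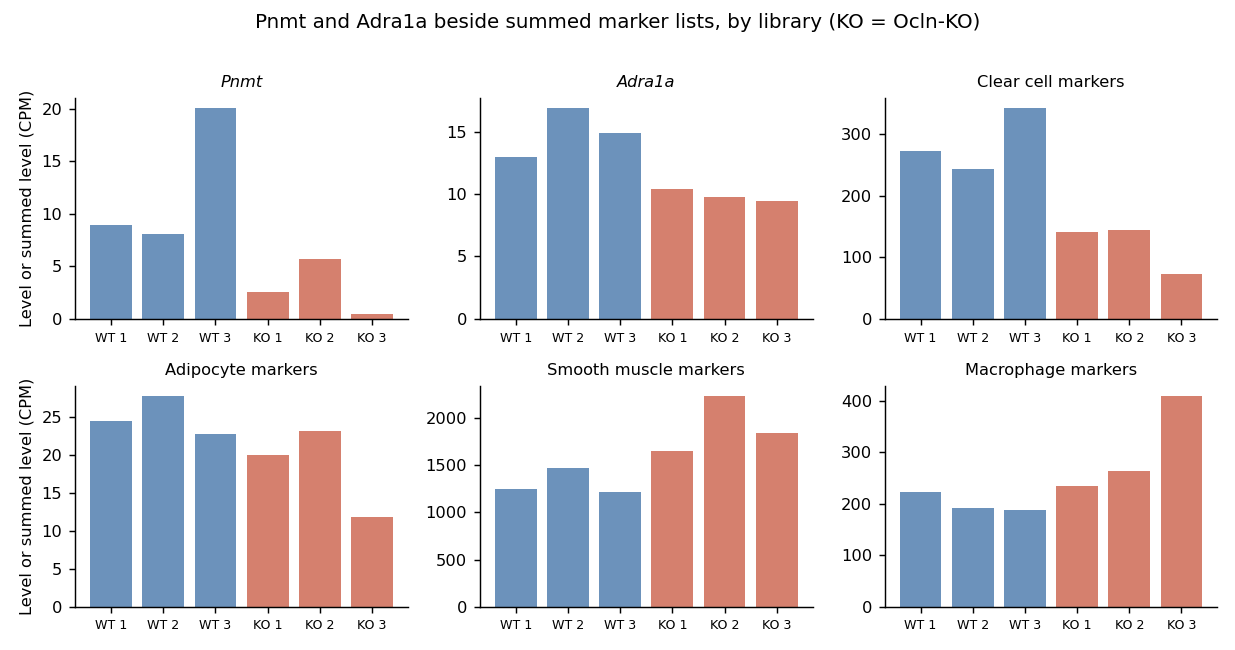
Level in CPM (y axes) of Pnmt and Adra1a in each library beside the summed level of clear cell, adipocyte, smooth muscle and macrophage markers. Pnmt and the clear cell sum are highest in WT replicate 3 and lowest in Ocln-KO replicate 3, Adra1a is similar in the 3 Ocln-KO libraries (9.44 to 10.4 CPM), and the smooth muscle sum is higher in Ocln-KO.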

How the data were processed

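Whole mouse epididymis was profiled in 3 WT and 3 Ocln-KO libraries (ribosomal RNA depleted, directional, paired-end). The authors removed adaptors and poor reads, aligned with HISAT2 (2.0.4 in the submitters' processing notes) to GRCm38, and deposited raw HTSeq counts per gene; the counting mode, strand setting and treatment of multiply mapped reads are not given in the sources used here. All 6 columns matched a sample. From these counts edgeR 4.0.16 (R 4.3.3) computed TMM factors, a filter on low counts (filterByExpr) that left 19691 of the 32046 genes with a count, and the quasi-likelihood test of Ocln-KO against WT with Benjamini-Hochberg adjustment, checked first on simulated counts. Alternatives used DESeq2 1.42.0, limma 3.58.1 (voom), other scalings and filters, a replicate block and each library left out. The 8 genes were named by symbol, those with most similar profiles by Pearson's r of log2 CPM (3 for each called gene) among genes with a mean of at least 1 CPM, and pathway genes where called or where they encode adrenergic receptors; Egr1, Nr3c1, Slc18a1, Slc6a2, Drd4 and Npy were added after their values were seen. Members and lists were chosen with earlier results of these data known, and a few list genes are not reported here. Total counts were 30646424 to 38870780 per library. Exon lengths came from GENCODE M21, and coordinates and promoters from RefSeq (GRCm38.p6). No exact permutation test of 3 against 3 libraries can go below p = 0.1.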

Additional observations from a re-analysis of the deposited data

How the results depend on the processing

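The sign of the Th, Ddc, Dbh, Pnmt and Adra1a differences was the same under all alternatives run for each, and the calls of Ddc, Dbh and Pnmt (none) did not change. Th kept its call in 8 of 13 alternatives and Adra1a in 6 of 14. Of the 8 genes, 2 were called in the analysis reported; 1 was called with total counts only (Th), 1 where at least 10 counts were required in every library (Adra1a, with Th and Adrb1 not tested), and 0 to 1 with a library left out. Leaving out 1 library moved Th between -5.24 and -3.44, Adra1a between -0.69 and -0.50, Maoa between -0.10 and 0.13, Maob between -0.23 and 0.15 and Adrb1 between -0.82 and 0.21. With total counts only Adra1a was -0.51 (adjusted p = 0.0692) and Maoa 0.065, and with limma-voom Maob was -0.023. Same-numbered deviations correlated at -0.0525 to -0.00256. With 3 libraries in each group this cannot decide whether the replicate numbers mark pairs of animals. With the replicate number as a block edgeR called 0 of the 8 genes, with 2 at an unadjusted p under 0.05, while DESeq2 without the block called 2. Under the block Th was -4.00 (adjusted p = 0.106), Adra1a -0.59 (0.121) and Maob -0.025. Of the 61 pathway genes tested, 10 were called in the analysis reported, 16 with DESeq2 (12 lower and 4 higher), 12 with total counts only (8 lower and 4 higher), 0 with the block (19 at an unadjusted p under 0.05) and 0 to 10 with a library left out. Longest-transcript lengths changed the rank of 2 genes. Of all genes tested, 992 were called lower and 770 higher, against 31 and 10 with the block, 1708 and 1604 with DESeq2, and 19 and 4 without WT replicate 1. The causes of these changes were not tested. Depth limits Th in Ocln-KO (0 to 3 counts a library) and Adrb1 (4 to 21).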
